A study of Mus musculus with 14 samples.

Results

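The constant region genes of the antibody chains and the joining chain gene were followed in mouse hearts of 2 ages. They are 10 of the 49315 genes in the count table and were picked by symbol: the heavy chain genes Ighm, Ighd, Ighg1, Ighg2b, Ighg2c, Ighg3, Igha and Ighe, the kappa light chain gene Igkc, and Jchain. Hearts came from wild-type C57BL/6 males on standard chow, sampled at 12 or at 68 weeks of age, with 4 RNA-seq libraries per age. No sample carries a treatment label, although the series title concerns dietary glutamine. Whether each library had its own mouse is not stated in the labels, so errors here measure the spread between libraries, which may be technical. RNA came from about 10 mg of pulverised heart tissue, with no sorting of cells.

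An antibody is built of heavy and light chains, each with a variable part that binds the target and a constant part. B cells at rest carry IgM and IgD, whose constant parts come from the same long transcript by splicing. After activation, a B cell can delete the DNA between its variable segment and a later constant gene, and so switch to IgG, IgE or IgA. Plasma cells secrete the antibody, and the joining chain links the units of secreted IgM and IgA. C57BL/6 mice carry the IgG2c gene where some other strains carry IgG2a.

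In the count tables, which are mm10 by label, the 8 heavy chain genes lie on the minus strand of chromosome 12 between 113254830 and 113422730. In the direction of transcription Ighm (113418558 to 113422730) comes before Ighd (113406604 to 113416324), Ighg3, Ighg1, Ighg2b, Ighg2c (113285325 to 113288932), Ighe and Igha (113254830 to 113260236). Igkc is on chromosome 6 (70726435 to 70726966, plus strand) and Jchain on chromosome 5 (88519809 to 88527891, minus strand). These are the spans of the gene models. No other gene model overlaps a heavy chain member, while Igkc lies inside Gm30211, which had 0 to 3 counts per library. The members were chosen with their levels and isotype shares at the 2 ages already known, so those values are given as a description, without a test.

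Libraries held 23599296 to 34599121 counts. Levels below are CPM, the counts scaled to a common normalized library size, given as mean ± SD over 4 libraries. Transcripts of airway and lung differed widely between libraries. The sum of 20 airway and lung markers lay between 585 and 1761 CPM in replicates 1 to 3 of the 12-week group, and reached 1218 CPM in replicate 3 of the 68-week group. It was 32.2 CPM in the remaining 12-week library, with 1 marker at 0. In the remaining 68-week libraries it was at most 2.09 CPM, with 10 to 13 of the 20 markers at 0. The 6 cardiomyocyte markers summed to 41210 CPM or more in every library.

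The 6 members Ighm, Ighd, Ighg2c, Igha, Igkc and Jchain had counts in every library and passed the filter on low counts. The other 4 were near 0. Ighe, the IgE gene, had 0 counts in all 8 libraries, which leaves room for up to 0.129 CPM in the shallowest of them at a limit of 3 counts. Ighg1 had 0 counts at 12 weeks and 3 at 68 weeks, Ighg3 had 0 and 1, and Ighg2b had 1 and 7, summed over the 4 libraries of an age. Ighg2c was thus nearly the whole of the IgG signal at both ages.

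Ighg2c, the IgG2c heavy chain gene, was higher in every 68-week library than in any 12-week library, and close to constant within an age. Its levels at 12 weeks were 1.83, 1.98, 1.98 and 1.84 CPM in replicates 1 to 4, from 62, 55, 46 and 51 counts. At 68 weeks they were 9.90, 11.5, 12.5 and 12.4 CPM, from 299, 320, 389 and 415 counts. The groups did not overlap, the means being 1.91 ± 0.0832 and 11.6 ± 1.20 CPM and their ratio 6.08. The log2 fold change, 68 minus 12 weeks, was 2.60 ± 0.10 (approximate SE, edgeR). That SE is no larger than counting error gives for 214 and 1423 summed counts, so it may understate the spread between libraries. The coefficient of variation was 4.37% at 12 weeks and 10.4% at 68 weeks, against medians of 9.43% and 8.64% over the 15947 genes tested. At 12 weeks the variance of its counts, not scaled for library size, was 0.854 times their mean, where counting error alone gives 1. The 4.37% is smaller than counting error gives for 46 to 62 counts, so it does not measure how steady the gene was.

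**Figure D1:**
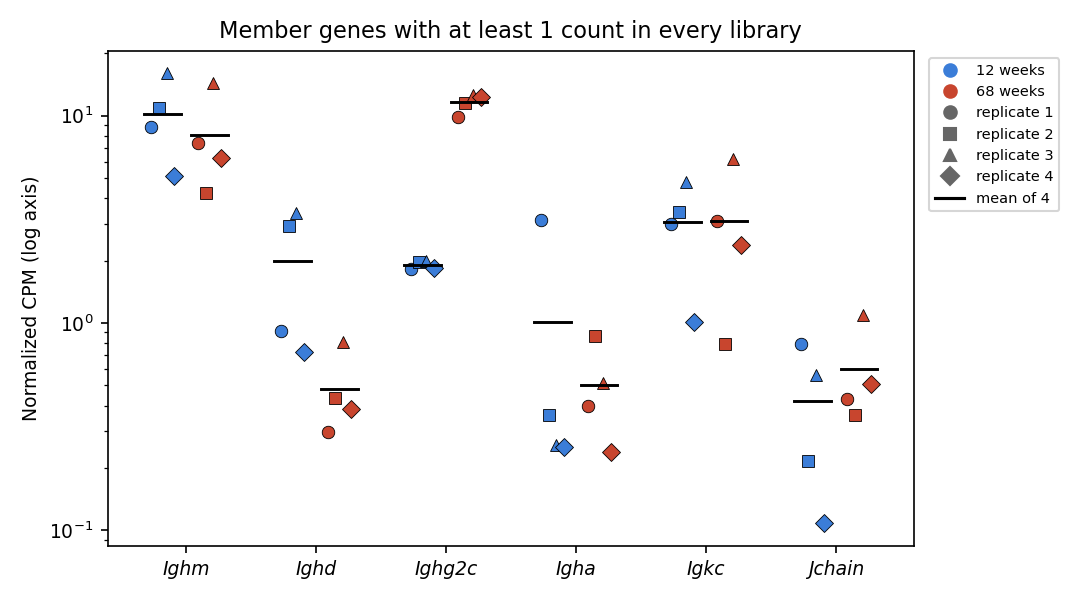
Normalized CPM (log axis) of the 6 members with counts in every library, by age and replicate, with the mean of 4 libraries as a bar. Ighg2c sits at 1.83 to 1.98 CPM at 12 weeks and 9.90 to 12.5 CPM at 68 weeks, while the other 5 genes overlap between the ages.

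Ighm, the IgM heavy chain gene, ranged widely in both groups and did not separate them. Replicates 1 to 4 of the 12-week group had 8.78, 10.8, 16.0 and 5.13 CPM. At 68 weeks it stood at 7.35, 4.25, 14.4 and 6.22 CPM. Replicate 3 was the highest library at each age, and the log2 fold change of -0.33 ± 0.40 was smaller than its SE. Its sign was not stable to airway content. With airway markers in the model the log2 fold change was 0.40 ± 0.33, in the 4 libraries under 100 CPM of airway markers, 1 at 12 weeks and 3 at 68 weeks, 0.22 ± 0.31, and in the 4 above, 3 and 1, 0.29 ± 0.29.

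Ighd, the IgD heavy chain gene, marks B cells that have not switched. Its levels were 0.913, 2.94, 3.40 and 0.722 CPM at 12 weeks and 0.298, 0.433, 0.806 and 0.387 CPM at 68 weeks. The groups overlapped by 1 library, since 68-week replicate 3 lay above 12-week replicate 4. The means were 2.00 ± 1.38 and 0.481 ± 0.224 CPM, and the log2 fold change was -2.03 ± 0.55. With airway markers in the model it was -1.29 ± 0.65. In the 4 libraries with under 100 CPM of airway markers, 1 at 12 weeks and 3 at 68 weeks, it was -0.95. In the 4 above it was -1.56, and without any 1 library it stayed between -2.39 and -1.65. Relative to Ighm, Ighd gave 0.104 to 0.272 counts per Ighm count at 12 weeks and 0.0405 to 0.102 at 68 weeks. The ranges just failed to overlap, their edges resting on 31 Ighd counts in 12-week replicate 1 and 12 in 68-week replicate 2. That gap is within counting error.

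Igha, the gene of IgA, the main antibody of mucosal surfaces, was set by a single library. It stood at 3.15 CPM (107 counts) in 12-week replicate 1, against 0.359, 0.258 and 0.253 CPM in replicates 2 to 4. At 68 weeks it stood at 0.397, 0.865, 0.516 and 0.238 CPM. The log2 fold change was -1.06 ± 0.83 with all libraries and 0.77 without 12-week replicate 1, so its sign rests on that library. The same library had the most airway and lung transcripts, at 1761 CPM, but the libraries at 979 and 1218 CPM had only 0.359 and 0.516 CPM of Igha. The part of airway tissue in this value was not tested.

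Igkc, the constant region of the kappa light chain, which pairs with every heavy chain class, had overlapping levels at the 2 ages. Replicates 1 to 4 had 3.01, 3.45, 4.78 and 1.01 CPM at 12 weeks and 3.11, 0.793, 6.19 and 2.38 CPM at 68 weeks. The lowest and the highest library thus belonged to the older group. The means were 3.06 ± 1.56 and 3.12 ± 2.26 CPM, with a log2 fold change of 0.04 ± 0.56. That value moved with airway content too, being 0.98 ± 0.49 with airway markers in the model, 1.06 ± 0.75 in the libraries under 100 CPM and 0.74 ± 0.27 in those above. The highest library exceeded the lowest 4.73 times at 12 weeks and 7.80 times at 68 weeks, where Ighg2c differed 1.08 and 1.27 times. The lambda constant genes Iglc1, Iglc2 and Iglc3 together gave 5 to 37 counts at 12 weeks and 5 to 28 at 68 weeks, and kappa made up 80.6% ± 5.48 and 86.3% ± 12.2 of the light chain counts.

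Jchain levels were 0.795, 0.215, 0.560 and 0.108 CPM at 12 weeks and 0.431, 0.361, 1.10 and 0.506 CPM at 68 weeks. The groups overlapped, and the log2 fold change was 0.49 ± 0.56. The 12-week values rest on 27, 6, 13 and 3 counts. The log2 fold change was 1.39 ± 0.50 with airway markers in the model, 1.97 ± 0.66 among the libraries under 100 CPM, against a single 12-week library, and 1.04 ± 0.61 among those above. The part of airway tissue in the levels of Ighm, Igkc and Jchain was not tested further.

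Of the 6 members tested, 1 was called higher and 0 lower by edgeR at an adjusted p of 0.05, where 1.61% of all tested genes were called higher and 1.22% lower. The called gene was Ighg2c, and it was called higher by each further fit as well. Those fits called 3.46% of genes higher (DESeq2), 1.05% (no low-count filter), 1.1% (library size alone), 0.702% (replicate number as a block) and 0.257% (airway markers in the model). In the libraries under 100 CPM of airway markers edgeR called 0.0606% of genes higher, and in those above 0.0232%. Ighd was called lower by DESeq2 and without the filter, which called 2.67% and 0.882% of genes lower. The other fits called no member lower, in the order above 1.56%, 0.301%, 0.0376%, 0.139% and 0.00581% of genes being called lower. Complete separation of the ages was seen for 1 of the 6 members and for 12.1% of all tested genes, 6.26% being above and 5.86% below at 68 weeks. The median log2 fold change of the 6 was -0.14, and that of all tested genes -0.01. Since age levels chose these genes, nothing is read from those counts.

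The mix of heavy chain classes differed between the ages mostly through IgG2c. Summed over the 8 heavy chain genes, the level was 15.1 ± 5.65 CPM at 12 weeks and 20.7 ± 5.13 CPM at 68 weeks, with overlapping libraries. Leaving Ighg2c out, the other 7 summed to 13.2 ± 5.59 and 9.14 ± 4.54 CPM. Ighg2c made up 12.4%, 12.2%, 9.13% and 23.2% of heavy chain counts in 12-week replicates 1 to 4. It made up 54.9%, 66.7%, 44.2% and 64.2% at 68 weeks, above all 12-week libraries. The exact binomial 95% intervals, which cover counting error only, ran up to 29.3% in the highest 12-week library and down to 40.9% in the lowest 68-week library.

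Shares add up to a fixed total, so a larger share of Ighg2c leaves less for the other genes. The mean share of Ighm was 66.4% ± 5.83 at 12 weeks and 37.2% ± 11.3 at 68 weeks, while its CPM overlapped between the ages. The mean Ighd share was 12.3% ± 5.60 at 12 weeks and 2.25% ± 0.526 at 68 weeks, and its ranges, 6.23% to 18.3% and 1.65% to 2.84%, did not overlap. Igha made up 21.5% of the heavy chain counts in 12-week replicate 1 and 1.19% to 5.00% in the other 7 libraries. Among switched classes alone, without Ighm and Ighd, Ighg2c made up a mean of 74.0% at 12 weeks and 95.1% at 68 weeks. In 12-week replicate 1 that share was 36.7%, with Igha at 63.3% of 169 switched counts, and in the other 3 libraries of that age Ighg2c averaged 86.4% and Igha 12.9%. Counted per kilobase of exon, which corrects for gene length, the Ighg2c share was 19.4% ± 7.64 at 12 weeks and 66.0% ± 9.72 at 68 weeks.

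**Figure D2:**
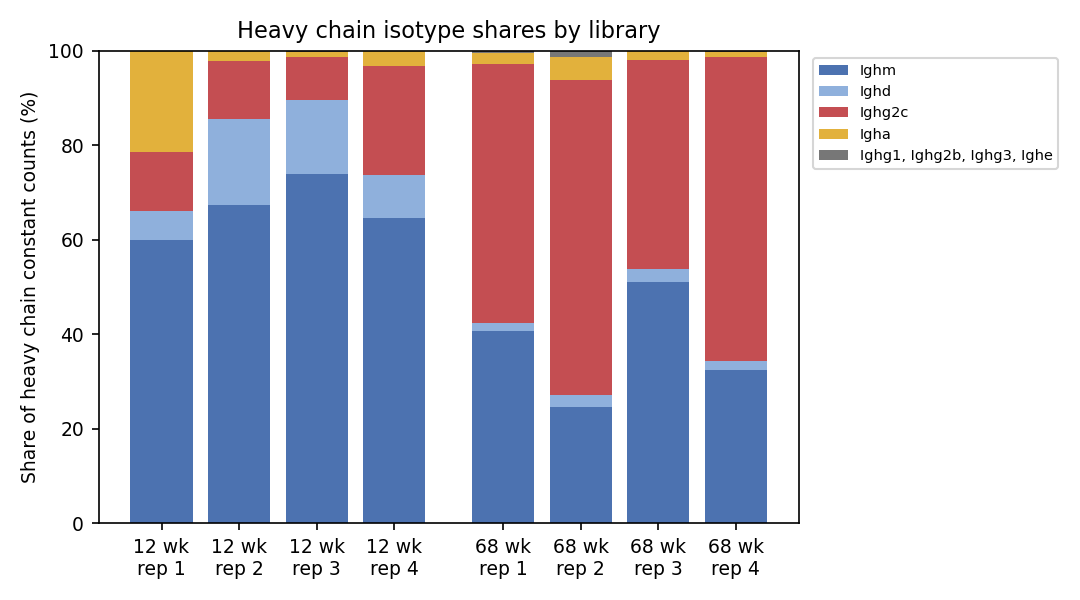
Share of heavy chain constant region counts (%) held by each gene in each of the 8 libraries. Ighg2c holds 9.13% to 23.2% at 12 weeks and 44.2% to 66.7% at 68 weeks, and Igha stands out in 12-week replicate 1 at 21.5%.

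Within each age, Ighm and Igkc ranked the libraries in the same order. At 12 weeks both genes were lowest in replicate 4, then replicates 1 and 2, and highest in replicate 3. At 68 weeks both were lowest in replicate 2, then replicates 4 and 1, and highest in replicate 3. For Ighg2c at 12 weeks, replicates 1 and 4 changed places in the order. Its levels there, 1.83 to 1.98 CPM, differed by no more than counting error. At 68 weeks Ighg2c was lowest in replicate 1, then replicates 2 and 4, and highest in replicate 3. Per kilobase of exon, the level of Igkc was 0.661 to 1.52 times that of Ighm over all 8 libraries, with overlapping ages. The level of Igkc per kilobase was 1.37 to 6.01 times that of Ighg2c at 12 weeks, and 0.171 to 1.23 times at 68 weeks. In 68-week replicate 2, Ighg2c stood at 8.70 CPM per kilobase and Igkc at 1.49, while Ighm stood at 2.26.

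The balance of light to heavy chain transcripts was lower on average at 68 weeks, with overlap. All light chain constant genes together, per kilobase, came to 0.863, 0.963, 1.02 and 0.497 times all heavy chain genes in 12-week replicates 1 to 4. At 68 weeks the values were 0.526, 0.193, 0.751 and 0.369. The means were 0.835 ± 0.234 and 0.460 ± 0.237, and the ranges overlapped. Set against Ighm, Ighd and Igha alone, the same light chain sum came to 1.02 ± 0.212 times the heavy chain sum at 12 weeks and 1.30 ± 0.354 times at 68 weeks. The Igkc model is 532 bases long and those of the heavy chain genes with counts in every library 1326 to 2668, so these ratios depend on how evenly reads covered short and long models, which gene totals do not show.

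**Figure D3:**
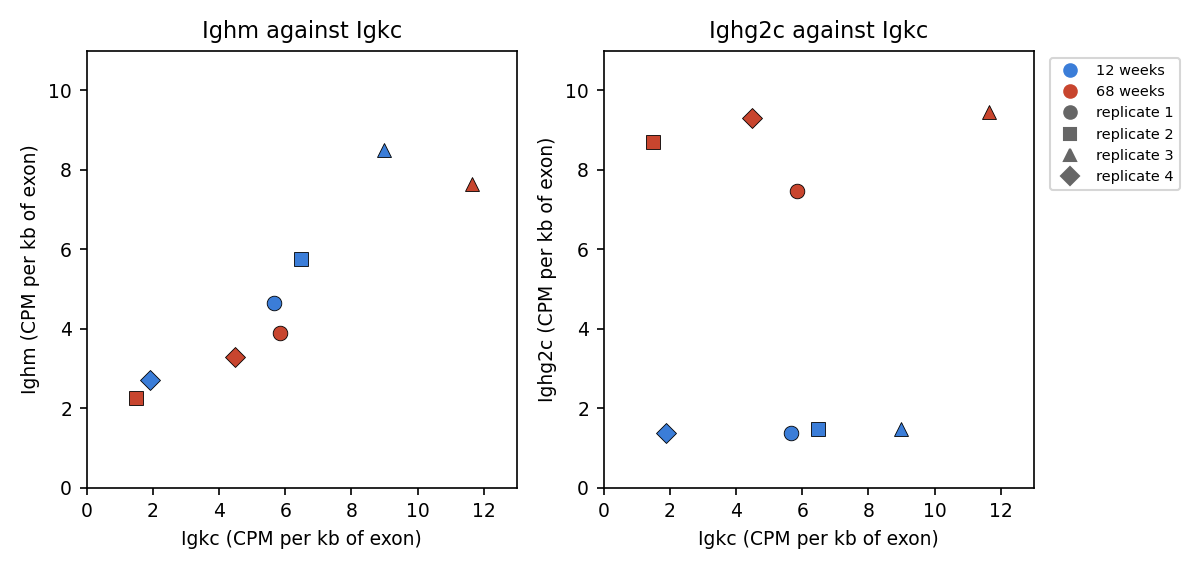
Ighm (left) and Ighg2c (right) against Igkc, all as CPM per kilobase of exon, with 1 point per library. Ighm runs from 2.26 to 8.49 with Igkc from 1.49 to 11.6, while Ighg2c lies at 1.38 to 1.49 at 12 weeks and 7.47 to 9.46 at 68 weeks whatever the level of Igkc.

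Variable segments sit on the same transcripts as the constant regions, and their summed levels ranked the libraries as Ighm and Igkc did. The 185 heavy chain Ighv segments together held 1.18, 1.62, 2.50 and 0.722 CPM in 12-week replicates 1 to 4. At 68 weeks they held 1.59, 0.685, 2.16 and 1.13 CPM. The mean was 1.50 ± 0.756 CPM at 12 weeks and 1.39 ± 0.631 at 68 weeks, so the Ighv sum was about level where Ighg2c was 6.08 times higher. For every 100 heavy chain constant counts there were 8.03 to 11.5 Ighv counts at 12 weeks and 3.96 to 8.81 at 68 weeks. The 160 kappa Igkv segments summed to 2.26 ± 1.35 CPM at 12 weeks and 2.50 ± 1.96 CPM at 68 weeks. Segments are alike in sequence and mutate in B cells, and reads across a join may go uncounted. How reads with several matches were handled is not given either, so these sums are uncertain.

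Few segments carried many reads, and they differed between libraries. In 68-week replicate 3, Igkv3-2 gave 73 of 167 Igkv counts (43.7%) and Igkv12-44 gave 21, whereas Igkv3-2 gave 14 counts in 68-week replicate 1 and at most 2 in the other 6 libraries. In 68-week replicate 1, Igkv4-91 (17 counts, 28.8% of Igkv) and Ighv12-3 (15 counts, 31.2% of Ighv) led. In 12-week replicate 1, the library rich in Igha, Ighv1-64 gave 12 of 40 Ighv counts and Igkv1-117 gave 15 of 65 Igkv counts, and Ighv1-64 had 1 count in all other libraries together. Counts this small do not show how many cell clones were present.

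Of 20 B cell genes, 18 could be tested, and 3 fell and 1 rose by edgeR. Their median log2 fold change was -1.0, where that of all tested genes was -0.01, and 17 of the 18 had a negative value. DESeq2 called 5 lower. Cd79a and Cd79b, which encode the signalling chains of the B cell receptor, fell by 2.17 and 1.96 on the log2 scale (adjusted p = 0.0287 and 0.0412, edgeR). Pax5, the transcription factor that keeps B cell identity, fell from 1.65 ± 0.848 to 0.317 ± 0.0467 CPM (log2 fold change -2.35 ± 0.39, adjusted p = 0.0181, edgeR). Blk, a Src-family kinase used by B cells, rose from 3.10 ± 0.317 to 5.13 ± 1.08 CPM (log2 fold change 0.73 ± 0.16, adjusted p = 0.0460, edgeR).

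These B cell calls depended on the libraries used. A model with airway markers called 0 of the 4, with log2 fold changes nearly as large: -1.74 for Cd79a, -1.77 for Cd79b, -2.04 for Pax5 and 0.63 for Blk. Their edgeR adjusted p was 0.321, 0.327, 0.232 and 0.340. In the 4 libraries under 100 CPM of airway markers the values for the 3 lower genes were smaller in size, at -0.83, -1.16 and -1.38, and in those above they were -2.44, -2.22 and -2.54. Leaving out 12-week replicate 2, 68-week replicate 2 or 68-week replicate 4 left 0 of the B cell genes called lower, and leaving out 12-week replicate 4 left 4. The log2 fold changes without any 1 library stayed between -2.43 and -1.85 for Cd79a, -2.36 and -1.66 for Cd79b, and -2.57 and -2.04 for Pax5. The 6 B cell markers summed to 3.14 to 12.3 CPM at 12 weeks and 1.31 to 2.88 CPM at 68 weeks, and none was at 0 in any library. Some markers of other cells were also called lower at 68 weeks. Of 7 adipocyte markers 3 were called lower (Adipoq, Cidec and Cfd), while 6 had negative values and Lep had 0.85. The 7 summed to 546 to 1127 CPM at 12 weeks and 293 to 498 CPM at 68 weeks. The 5 neutrophil markers tested had negative values, a median of -1.96 and no call, with sums of 6.36 to 39.2 CPM and 5.19 to 9.70 CPM. Ly6g, which defines neutrophils, was at 0 in 6 of the 8 libraries. The 12-week libraries highest in B cell markers, replicates 3 and 2, were also the highest of that age in neutrophil and erythroid markers, at 39.2 and 20.2 CPM and at 7971 and 5026 CPM. At 68 weeks the libraries highest in B cell markers, replicates 1 and 3, were also highest in neutrophil markers, at 8.64 and 9.70 CPM. Erythroid markers were instead highest in replicate 2 at that age, at 8539 CPM. That library had 1.33 CPM of B cell and 5.19 CPM of neutrophil markers. Of 4 T cell markers tested, Trac was called lower, while 3 had negative values and Cd3e had 0.46. All 8 T cell markers summed to 2.71 to 5.42 CPM at 12 weeks and 2.47 to 3.38 CPM at 68 weeks. The part of these cells in the B cell values was not tested. Ighg2c was 1.02 to 3.92 times the level of Cd79a at 12 weeks and 33.2 to 51.9 times at 68 weeks. In whole tissue, fewer cells of a type and less RNA per cell cannot be told apart.

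**Figure D4:**
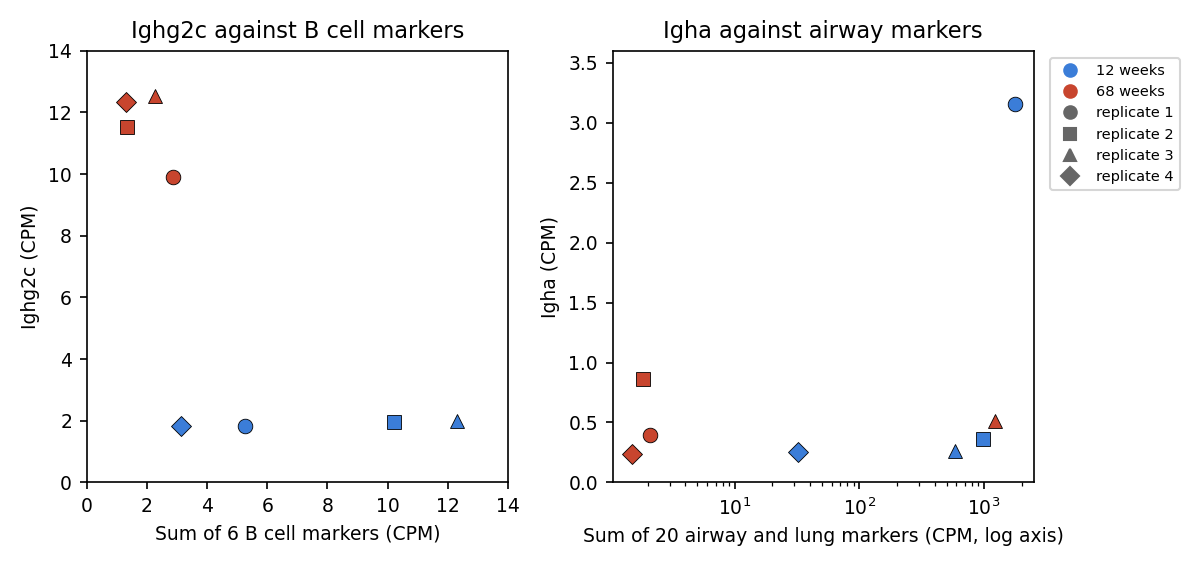
Left, Ighg2c CPM against the sum of 6 B cell markers; right, Igha CPM against the sum of 20 airway and lung markers on a log axis, with 1 point per library. The 68-week libraries combine 9.90 to 12.5 CPM of Ighg2c with B cell sums of at most 2.88 CPM, and the Igha value of 3.15 CPM belongs to the library with the most airway transcripts.

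Plasma cell genes showed few calls. Of 18 such genes 17 could be tested, and edgeR called Ell2 alone, with a median log2 fold change of -0.06. Ell2, an elongation factor that plasma cells use to make the secreted form of antibody mRNA and that many other cells express, rose from 22.6 ± 1.72 to 33.8 ± 3.94 CPM (log2 fold change 0.58 ± 0.09, adjusted p = 0.0128, edgeR). It lost its call in the fit with airway markers (0.40, adjusted p = 0.104, edgeR). Irf4, a transcription factor needed for plasma cells, stood at -1.07 ± 0.24 on the log2 scale (adjusted p = 0.0513, edgeR) and Pou2af1, a B cell coactivator, at -1.57 ± 0.41 (adjusted p = 0.0742, edgeR). Both were called lower by DESeq2 (adjusted p = 0.00202 and 0.0278), and Irf4 also by edgeR without the filter (adjusted p = 0.0230). The chaperone gene Fkbp11 had 0.54 ± 0.19 (adjusted p = 0.160, edgeR).

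The surface proteoglycan gene Sdc1, a plasma cell marker that epithelia also express, stood at 12.0 ± 2.16 and 10.2 ± 2.10 CPM. Mzb1, an antibody chaperone gene, stood at 1.17 ± 0.193 and 1.13 ± 0.174 CPM. Tnfrsf17, which encodes the survival receptor BCMA and is close to specific to plasma cells, had 1 to 5 counts per library at either age, too few to pass the filter. Mzb1 and Tnfrsf17 were picked after their values were seen. The 7 plasma cell markers summed to 72.4 to 98.4 CPM at 12 weeks and 69.8 to 85.5 CPM at 68 weeks, most of it from Xbp1, which many secreting cells express.

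**Figure D5:**
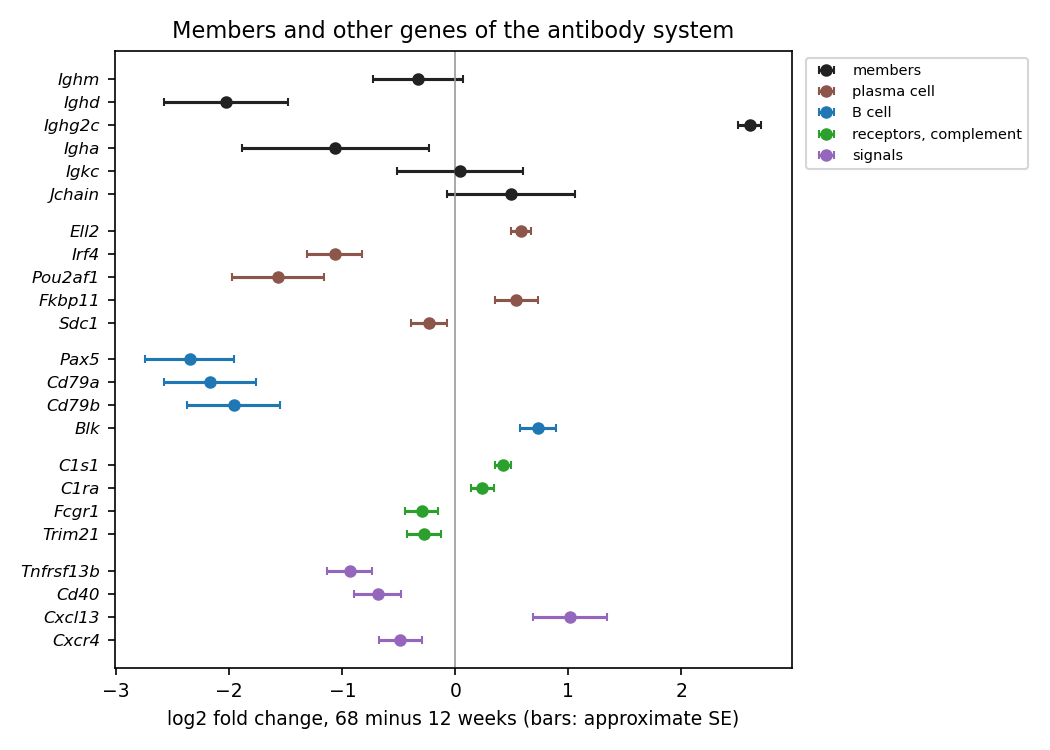
Log2 fold change, 68 minus 12 weeks, with approximate SE from edgeR, for the 6 measured members and for named genes of 4 lists. Ighg2c lies at 2.60, Cd79a, Cd79b and Pax5 lie between -2.35 and -1.96, and most plasma cell, receptor and signal genes lie within 1.1 of 0.

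The enzymes of class switching showed no called gene. Of 15 genes 13 were tested and 0 were called by edgeR, 2 having an unadjusted p under 0.05. Among them was Ung, which removes uracil from DNA (log2 fold change -0.36 ± 0.13, adjusted p = 0.160, edgeR). Prkdc (-0.10 ± 0.08) and Trp53bp1 (0.08 ± 0.07), which act in joining broken DNA, were not called either.

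Of 15 genes for antibody receptors and complement, 14 were tested and C1s1 alone was called. C1s1, a protease of the complement C1 complex that antibodies bind, rose from 27.1 ± 1.74 to 36.3 ± 3.25 CPM (log2 fold change 0.42 ± 0.07, adjusted p = 0.0201, edgeR). It was not called with library size alone as the normalization (0.36, adjusted p = 0.0507, edgeR), or in the fit with airway markers (0.47, adjusted p = 0.0938, edgeR). Leaving out 12-week replicate 1, 2 or 3 or 68-week replicate 1 also ended the call, at an adjusted p of 0.0523 to 0.0545, with the log2 fold change between 0.38 and 0.43. Its partner protease gene C1ra had 0.24 ± 0.10, the IgG receptor gene Fcgr1 had -0.30 ± 0.14 and the cytosolic antibody receptor gene Trim21 had -0.28 ± 0.15, none of them called. Pigr, which carries IgA and IgM across mucosal epithelium, was picked after its values were seen. It had 525, 244, 103 and 4 counts in 12-week replicates 1 to 4 and 0, 0, 289 and 0 at 68 weeks, in step with the airway markers.

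Of 20 signal genes for B cell survival, homing and switching, 13 were tested and Tnfrsf13b alone was called. Tnfrsf13b, which encodes the receptor TACI for the survival factors BAFF and APRIL, fell from 1.16 ± 0.145 to 0.606 ± 0.0930 CPM (log2 fold change -0.94 ± 0.20, adjusted p = 0.0423, edgeR). It was not called without any 1 of the 8 libraries, or in the fit with airway markers (-0.82, adjusted p = 0.327, edgeR). Without 1 library its log2 fold change stayed between -1.03 and -0.85. Cxcl13, the chemokine that draws B cells into follicles, stood at 0.852 ± 0.241 and 1.74 ± 0.700 CPM (log2 fold change 1.01 ± 0.33, adjusted p = 0.136, edgeR). The co-stimulatory receptor gene Cd40 had -0.69 ± 0.21 and the homing receptor gene Cxcr4 had -0.49 ± 0.19, neither called. Ifng and Il21, cytokines known to drive IgG2c switching, gave 1 count and 0 counts over all 8 libraries and were picked after their values were seen.

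The genes whose levels across the 8 libraries ran closest to Ighg2c were BC048679, Klk1b26, Gsta2, Cdkn2a and Cd209g. Likeness was the root mean square difference of log2 CPM after centring each gene, and was 0.279, 0.330, 0.405, 0.409 and 0.445 for these 5 genes. Being picked for that pattern, they have no test. Klk1b26 stood at 0.399 ± 0.0911 and 1.94 ± 0.373 CPM, and Cd209g, which encodes a lectin, at 0.378 ± 0.115 and 1.40 ± 0.171 CPM. The other 3 stayed below 1 CPM in every library. Klk1b26, Gsta2 and Cd209g belong to families of similar copies, so their counts are uncertain.

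The H3K27me3 CUT&RUN lists gave no link to these genes. H3K27me3 is a histone mark of silenced chromatin, and the authors list 3433 regions as unique to 68 weeks and 1164 as unique to 12 weeks. Of their linked genes 0 was a member or any other immunoglobulin gene. Between 113200000 and 113450000 on chromosome 12, the 68-week list held 4 regions and the 12-week list 0. They lay at 113245707 to 113246001, 113256746 to 113257295, 113276427 to 113276632 and 113276738 to 113277024. Their scores, which are the authors' and have no stated scale, were 4.74, 5.40, 4.13 and 3.85, where the median of the 68-week list was 4.77. The build of these coordinates was not established, since 20.6% of the authors' links placed the region on the span of its gene in the count tables, so the 4 regions cannot be placed among the constant genes. The lists hold no value per library, and the 4 regions have no replicate error.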

How the data were processed

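RNA was measured in 8 heart libraries and H3K27me3 by CUT&RUN in 2 libraries and 1 input per age. The deposited RNA tables hold raw whole-number counts for each gene, per the file headers. The per-library tables equalled the series table in all 8 libraries. The submitters' processing notes name Trimmomatic 0.36, STAR 2.5.2b, featureCounts of Subread 1.5.2, DESeq2 and mm10 for the series, and Bowtie2 2.4.2 and MACS3 3.0.0b1 among others, with no roles. The handling of strand and of reads with several matches is not given in the sources used here. Reads shared by similar constant genes are therefore uncertain. The deposited region lists hold a score per region, which the authors call enrichment.

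Counts were fitted with edgeR 4.0.16 (quasi-likelihood, TMM, filterByExpr, age alone) in R 4.3.3 over 15947 genes, with Benjamini-Hochberg adjustment. The approximate SE was derived from the log2 fold change and its F statistic. DESeq2 1.42.0, library size alone, no filter, airway markers as a covariate, the replicate number as a block, each library left out and subsets by airway level were alternatives. The script was tested on simulated data. The lowest chi-square per degree of freedom between libraries of an age was 17.4, so every pair differed by more than counting error. That value does not show whether libraries came from separate mice. Members and lists were chosen with earlier results of these data known. Named genes were the members, up to 4 genes with the smallest p per list, Iglc1 to Iglc3, Cd79a, Sdc1, the leading variable segments and the 5 genes most like Ighg2c. Immunoglobulin protein and genome sequences were not used here, and some genes of the lists are not reported here.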

Additional observations from a re-analysis of the deposited data

Results flagged for a closer look

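Groups of 4 libraries were searched for a library far from the other 3, by Dixon's test at the 95% level. Of 94 groups, 7 had one. That number cannot be set against the test's nominal rate of about 1 in 20. A group with counts in 1 library alone is always flagged, and Igha was flagged by both level and share in the same library. Igha in 12-week replicate 1 stood at 3.15 CPM against 0.253 to 0.359 CPM in the other 3, and at 21.5% of heavy chain counts against 1.19% to 3.18%. The remaining 5 rest on few counts. Ighg2b stood at 0.0431 CPM in 12-week replicate 3 with 0 in the others, and at 0.144 CPM in 68-week replicate 2 against 0.0298 to 0.0331 CPM. Ighg3 stood at 0.0361 CPM in 68-week replicate 2 with 0 in the others. Iglc2 stood at 0.516 CPM in 68-week replicate 3 against 0.0595 to 0.0993 CPM, and Iglc3 at 0.0721 CPM in 68-week replicate 2 against 0.0298 to 0.0331 CPM.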

How the results depend on the processing

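The log2 fold change of Ighg2c stayed between 2.54 and 2.70 under all settings, and between 2.57 and 2.67 without any 1 library. With airway markers in the model Ighm had 0.40, and it was positive in both subsets by airway markers (0.22 and 0.29). In the 4 libraries under 100 CPM of airway markers, 1 against 3, Ighd had -0.95, Igha 0.94 and Jchain 1.97. Without 1 library, Igha ran from -1.44 to 0.77. The share of Ighg2c at 12 weeks was 23.2% and the heavy chain sum 7.94 CPM in the single 12-week library low in airway markers. Without Ighm and Ighd, the 12-week shares of Ighg2c and Igha were 74.0% and 25.5%, and the 68-week share of Ighg2c was 95.1%. Without 12-week replicate 1 as well, an alternative chosen after seeing the data, the former were 86.4% and 12.9%.

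Over all genes, 256 were higher and 195 lower. The counts were 568 and 439 with DESeq2, 112 and 48 with the replicate block, 41 and 6 with airway markers in the model, 10 and 23 in libraries under 100 CPM of airway markers, 4 and 1 in those above, and 176 and 248 with library size alone. Without 1 library they ran from 117 to 209 higher and from 52 to 154 lower. Replicate numbers gave no clear sign of pairing the libraries. Deviations of same-numbered libraries correlated at -0.262, -0.0881, 0.0936 and 0.366, and 2 of 8 libraries correlated best with their own number. A batch shared by number was not tested.

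Calls in the lists were few. B cell genes called lower numbered 3, against 5 with DESeq2, 0 with the replicate block, with airway markers and in both subsets, and 0 to 4 without 1 library. Those called higher numbered 1, also with DESeq2, and 0 with the replicate block, with airway markers and with library size alone. They numbered 0 to 1 without 1 library. Plasma cell genes called higher numbered 0 with airway markers and in both subsets, and those called lower numbered 2 with DESeq2 (Irf4 and Pou2af1), 1 without the filter (Irf4) and 0 to 1 without 1 library. Receptor and complement genes called higher numbered 0 with library size alone, the replicate block, airway markers and in both subsets, and 0 to 1 without 1 library. Signal genes called lower numbered 0 without the filter, with the replicate block, with airway markers, in both subsets and without any 1 library. Of the named genes, Ung (0.046) and Trp53bp1 (-0.089) changed sign in the libraries under 100 CPM, and Sdc1 with airway markers (0.10) and in the other subset (0.046). The causes were not tested. Overlap of regions with gene spans was not run, since builds could not be matched. Depth limits most members. Those outside Ighg2c, Ighm and Igkc rest on at most 107 counts per library. Ighg2c rests on 46 to 62 counts per library at 12 weeks, and Igkc on 22 to 192 over both ages.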
